A study of Homo sapiens with 9 samples.

Results

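Polyadenylated RNA of 87 genes linked to histone supply was followed in a gene count table of 60675 rows. The table came from HCC827, a human lung adenocarcinoma cell line with an activating EGFR mutation. Of these genes, 71 were protein-coding genes whose GENCODE release 29 symbol begins with HIST1H to HIST4H, called replication-dependent histone genes here. A further 10 encoded histone variants (H2AFZ, H2AFV, H2AFX, H2AFY, H2AFY2, H3F3A, H3F3B, CENPA, H1F0 and H1FX), and 6 encoded proteins that carry histones or bind their RNA (ASF1A, ASF1B, HIRA, NASP, HJURP and SLBP). These 6 are called chaperones here for short, although SLBP binds histone RNA and is not a histone chaperone. Cells stably carried hairpin G1 against CBX5, hairpin G7 against CBX5, or a control hairpin labelled NS, with 3 libraries per hairpin and 9 in all. All groups grew in the same serum medium, and no drug is named in the labels. The series' design text calls the 3 libraries of a group biological replicates, but no label says whether they came from separate transductions, so p-values measure the spread between these libraries. CBX5 encodes HP1 alpha, a heterochromatin protein that binds methylated histone H3.

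Replication-dependent histone genes lie in clusters and supply new nucleosomes during DNA synthesis. Their RNA usually ends in a short stem-loop bound by SLBP in place of a poly-A tail, although some of these genes also make longer polyadenylated RNA. Variant histones come from ordinary polyadenylated RNA, mostly outside the clusters, and replace or join the canonical histones at particular sites. Chaperones bring histones into chromatin. ASF1 hands H3 and H4 to other chaperones, HIRA places the H3.3 variant, HJURP places CENPA at centromeres, and NASP holds free histones.

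Library totals lay between 12701561 and 22372353 counts, and mitochondrially encoded genes took 13.4% to 19.8% of them, the highest share being in G7 replicate 3. That library also stood apart within its group. The chi-square of its counts, divided by the degrees of freedom, was 24.7 against G7 replicate 1 and 19.5 against G7 replicate 2, and it was 1.51 between replicates 1 and 2. Leaving it out gave, for G7 minus NS, 3 called replication-dependent genes, 8 called variants and 4 called chaperones, where all libraries gave 3, 6 and 4. CBX5 itself changed by -1.38 ± 0.039 with G1 and -0.86 ± 0.038 with G7. Of 6 epithelial markers, all were counted, summing to 13750 to 13940 CPM (read counts scaled to library size, with TMM factors) with G1, 11440 to 12120 with G7 and 9629 to 10600 with NS. Of 6 fibroblast markers only COL1A1 was tested, and LUM was at 0. Of 6 leukocyte markers only CD14 was tested, with CD68 and MS4A1 at 0. It fell by 1.18 with G1, and the list summed to 3.02 to 3.68 CPM with G1, 5.82 to 7.14 with G7 and 6.11 to 7.32 with NS. Of 5 endothelial markers PECAM1 and CDH5 were tested, and the list summed to 71.2 to 77.0, 85.8 to 92.5 and 84.2 to 92.8 CPM in the same order of groups. The part of any such cells in the results was not tested.

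In these oligo-dT selected libraries most replication-dependent histone genes were barely counted. Of the 71 genes, 28 had 0 counts in all 9 libraries, 24 had some counts but too few to test, and 19 passed the filter on low counts. The 71 genes together took 0.0043% to 0.00495% of the counts with G1, 0.00684% to 0.00803% with G7 and 0.00886% to 0.00946% with NS. Detection went with the annotated 3′ end, but the classes also differed in exonic length, shared sequence and overlap with other genes. Among 25 genes with a 3′ UTR of at least 200 bases, 17 were tested and 5 were at 0. Among 11 genes with a shorter 3′ UTR 1 was tested (HIST1H1E), and among 35 genes with none annotated 1 was tested (HIST1H2BK). Of these 35, 9 shared over 50% of their exonic 50-base words with another gene and 5 lay wholly inside other genes. Of the 25 with a long 3′ UTR these numbers were 4 and 0. The part of length, shared sequence and overlap in detection was not tested. The 200-base boundary was chosen after the values had been seen, and genes that passed only through a high group had to differ, so the tested genes do not stand for all 71. By family, 1 of 6 H1 genes, 3 of 17 H2A, 9 of 18 H2B, 3 of 15 H3 and 3 of 15 H4 genes were tested. The highest mean among untested genes was 0.337 CPM, in HIST1H4E. Of 10 other RNAs known to lack a poly-A tail, 9 were at 0 in all libraries, and SNORD3A summed to 0.178 to 0.321 CPM with G1, 0.31 to 0.602 with G7 and 0.0687 to 0.378 with NS. Shared sequence and overlap with other genes were not measured for these 10, and their part in the zeros was not tested.

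**Figure D1:**
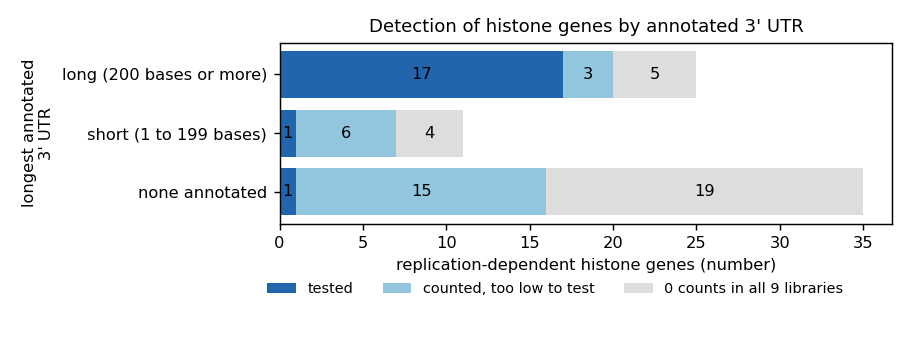
Number of replication-dependent histone genes (x axis) by the length of their longest annotated 3′ UTR (y axis), split into tested genes, genes counted but too low to test, and genes at 0 counts in all 9 libraries. Of the genes with a long 3′ UTR 17 of 25 were tested, against 1 of 35 with none annotated. The classes also differ in exonic length, shared sequence and overlap with other genes.

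The stem-loop could be read in the annotated transcripts of 32 of the 71 genes, and in 16 of the 19 tested ones, by searching 150 bases after the stop codon for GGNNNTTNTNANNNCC on the gene's strand. The sites of the 6 genes on which the results turn most are shown because polyadenylated RNA that runs past them is what oligo-dT can hold. Capitals mark the stem-loop core in GRCh38 sequence of GENCODE release 29, read 5′ to 3′ on the gene's strand.
HIST1H2AC, chr6:26124664-26124689, plus strand: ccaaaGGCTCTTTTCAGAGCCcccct
HIST1H3E, chr6:26225591-26225616, plus strand: ccaaaGGCTCTTCTCAGAGCCaacca
HIST1H2BN, chr6:27839085-27839110, plus strand: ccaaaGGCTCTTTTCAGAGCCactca
HIST1H4H, chr6:26285126-26285151, minus strand: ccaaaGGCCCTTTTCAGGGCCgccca
HIST2H2BE, chr1:149886183-149886208, minus strand: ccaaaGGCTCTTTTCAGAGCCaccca
HIST3H2A, chr1:228457364-228457389, minus strand: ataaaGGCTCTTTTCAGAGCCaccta
HIST1H2AC, HIST1H2BN, HIST2H2BE and HIST3H2A shared the same 16 capital letters although they encode H2A and H2B. The annotated transcript went on for 1114 bases after the stem-loop in HIST1H2AC, 1862 in HIST1H3E, 1729 in HIST2H2BE, 630 in HIST1H4H, 390 in HIST3H2A and 377 in HIST1H2BN.

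Near-identical copies and overlapping genes limited what could be counted. Of the 71 genes, 17 shared over 50% of their exonic 50-base words with another gene, and 12 of these were at 0. Of the 71, 5 lay wholly inside the span of other genes, and all 5 were at 0. In 14 genes at 0 there was no span overlap and under 5% of words were shared, among them HIST1H1C, HIST1H4C and HIST1H2BH, which are named as examples after their values were seen. Across the table, 1568 of 1618 protein-coding genes lying wholly inside others (96.9%) were at 0 in all 9 libraries, against 1502 of 7344 (20.5%) with no overlap. ASF1A, a chaperone of H3 and H4, lay wholly inside MCM9 and was listed at 0 in all 9 libraries, so its level was not measured here. The values of HIST1H2BK (74.1% of words shared, most with H2BFS), HIST1H2BD (80.2% of its span overlapped), HIST2H2BF (34.8% overlapped), HIRA (82.3% overlapped), H1FX (58.8%, by its antisense gene), CENPA (46.1%) and H2AFY (37.8%) are uncertain for this reason. H3F3A shared 11.7% of its words, most with the pseudogene H3F3AP4. Antisense overlap cannot be set aside, since the strand setting of the counting is not given in the sources used here.

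With G1, 10 of the 19 tested replication-dependent histone genes fell and 1 rose, where 59.1% of all tested genes were called (30.4% higher and 28.7% lower). These values are for oligo-dT selected RNA. RNA that ends in the stem-loop, the usual form of these genes, was not measured, so its direction is not known here. With TMM scaling the share of the 19 called in either direction lay near the background. It includes HIST3H2BB, HIST1H2BF, HIST1H2BG, HIST4H4 and HIST1H1E, which passed the filter on low counts through the groups where they are high. Their values, also within the median below, are descriptions and their calls support nothing. With upper quartile scaling 15 of the 19 were lower and 1 higher, while 3066 of all tested genes were higher and 4815 lower, against 4031 and 3806 with TMM. Called means a Benjamini-Hochberg adjusted p under 0.05 in edgeR's quasi-likelihood test. The median log2 fold change of the 19 was -0.74, against -0.01 over all tested genes. HIST1H2AC (ENSG00000180573, GRCh38 chromosome 6, 26124145 to 26139116), an H2A gene, held 27.9% of all counts in the 71 genes. It had 9.66, 10.9 and 8.86 CPM with G1, 20.2, 22.4 and 19.9 CPM with G7 and 31, 29.3 and 28.3 CPM with NS. The groups did not overlap, with G7 between G1 and NS, and the log2 fold change with G1 was -1.58 ± 0.086 (edgeR adjusted p = 2.39e-11).

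The next most counted genes that fell encode H3, H2A and H2B. HIST1H3E (ENSG00000274750, chromosome 6, 26224199 to 26227473), an H3 gene, had 6.22, 7.27 and 6.74 CPM with G1, 10.5, 9.87 and 10.3 CPM with G7 and 12.9, 12.2 and 12.7 CPM with NS. Its 3 groups were also separate, in the order G1, G7 and NS from low to high, and the log2 fold change with G1 was -0.90 ± 0.097 (edgeR adjusted p = 2.39e-07). HIST3H2A, an H2A gene of the HIST3 cluster on chromosome 1, had 5.04, 5.06 and 3.59 CPM with G1, 9.59, 9.13 and 7.22 CPM with G7 and 8.31, 8.79 and 10.5 CPM with NS. Only the G1 libraries lay apart there, G7 and NS overlapping, and the log2 fold change with G1 was -1.01 ± 0.15 (edgeR adjusted p = 1.42e-05). HIST2H2BE, an H2B gene, had 3.50, 3.42 and 3.02 CPM with G1, 5.84, 5.90 and 4.47 CPM with G7 and 6.20, 6.66 and 6.43 CPM with NS. G1 was again lowest in all libraries and did not overlap NS, at -0.95 ± 0.14 (edgeR adjusted p = 1.49e-05).

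Lower counts stood behind the other falls. HIST1H4H, an H4 gene, had 1.84, 1.69 and 2.12 CPM with G1, 1.53, 1.93 and 2.79 CPM with G7 and 3.40, 3.02 and 2.98 CPM with NS. The G1 and G7 libraries overlapped each other and all lay below NS, and the log2 fold change with G1 was -0.74 ± 0.21. HIST1H2BN, an H2B gene, had 0.711, 1.05 and 0.770 CPM with G1, 1.57, 2.79 and 1.91 CPM with G7 and 1.44, 2.40 and 2.38 CPM with NS. All G1 libraries were lower than all others, at -1.29 ± 0.3 with G1. HIST3H2BB, the divergent neighbour of HIST3H2A, had 6, 7 and 5 counts with G1, 14, 11 and 14 with G7 and 11, 12 and 18 with NS, at -1.37 ± 0.33 with G1. These 7 genes kept their call under every alternative in which they were tested. HIST3H2BB, however, passed the filter on low counts through the G7 and NS libraries, where it is high. Its value is therefore a description and its call supports nothing. The G1 calls of HIST1H2BF, HIST1H2BG and HIST4H4 (log2 -1.49, -0.78 and -0.69) were less firm. That of HIST1H2BF ended without any 1 G1 library or without NS replicate 1 or 3 (edgeR adjusted p = 0.0859 to 0.195), that of HIST1H2BG without any 1 library but NS replicate 2 (0.0512 to 0.161), and that of HIST4H4 without G1 replicate 1 or 3 or NS replicate 1 or 2 (0.0839 to 0.158). All 3 calls also ended with DESeq2 (adjusted p = 0.0704, 0.159 and 0.114). HIST1H2BF, HIST1H2BG and HIST4H4, like HIST3H2BB, passed the filter on low counts through G7 and NS libraries, so their values are descriptions too. For HIST4H4 only G1 replicate 3, at 9 counts, fell short of the filter.

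**Figure D2:**
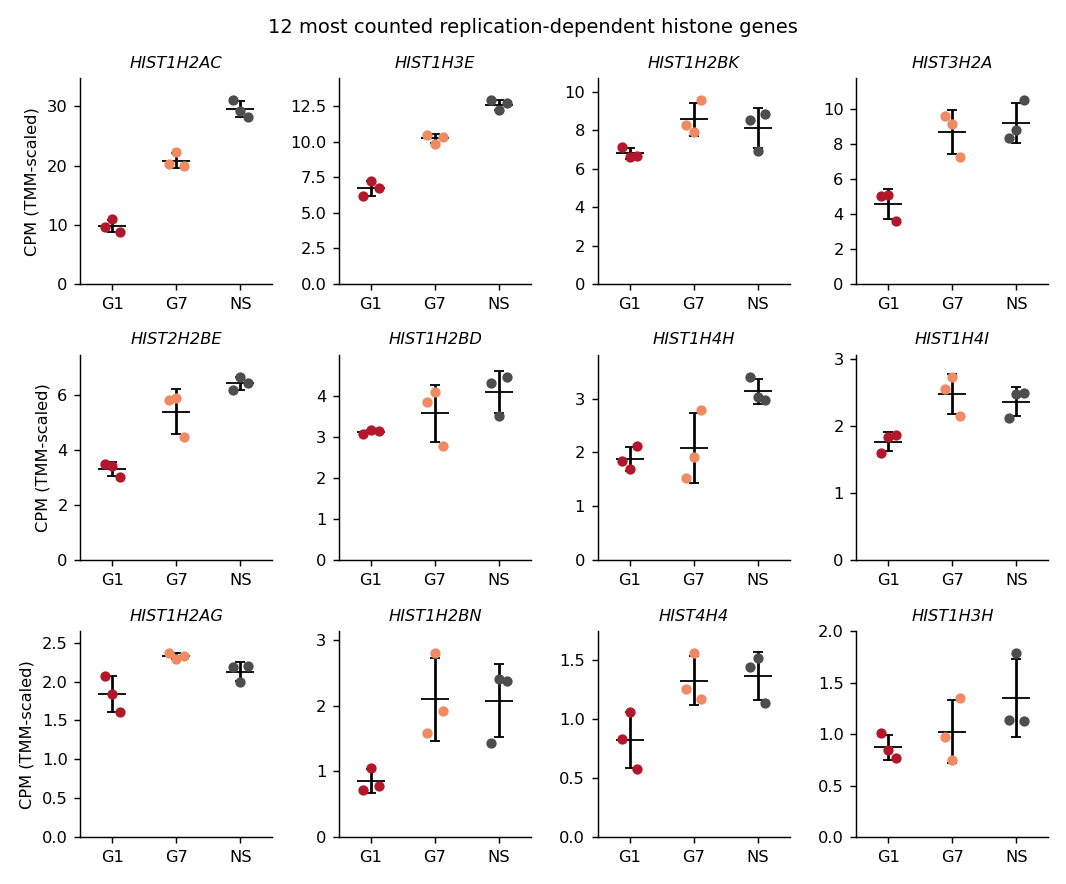
CPM (TMM-scaled, y axis) in each library of G1, G7 and NS for the 12 replication-dependent histone genes with the highest mean. Points are libraries, bars the mean ± SD of 3. HIST1H2AC and HIST1H3E show 3 separate groups, while G1 and NS overlap in HIST1H2BK and HIST1H2AG.

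The called gene that was higher with G1 was HIST1H1E, which encodes a linker histone H1 that binds DNA between nucleosomes. It had 11, 17 and 12 counts with G1, 13, 4 and 5 with G7 and 5, 3 and 5 with NS. G1 libraries reached 0.652 to 0.896 CPM and did not overlap NS, and the fitted log2 fold change was 1.39 ± 0.43. The gene passed the filter on low counts through the G1 libraries, where it is high, so this value is a description and its call supports nothing. The 6 H1 genes summed to 0.771, 1.05 and 0.963 CPM with G1, 0.649, 0.31 and 0.233 with G7 and 0.378, 0.206 and 0.357 with NS, a few counts per library. The 8 tested genes that were not called with G1 ran from -0.78 in HIST2H2BF to 0.39 in HIST1H3G, an H3 gene. Of these, 5 were called lower with upper quartile scaling, namely HIST1H2BK, HIST1H2BD, HIST1H4I, HIST1H3H and HIST2H2BF (edgeR adjusted p = 0.0208, 0.0219, 0.027, 0.0463 and 0.035). HIST1H2BD was also called with the filter of CPM above 1, in the fit of G1 and NS alone, without mitochondrially encoded genes, and without G7 replicate 3 or NS replicate 2 (0.0318 to 0.0488). HIST2H2BF was also called with that filter, in that fit and without G7 replicate 2 or 3 (0.0286 to 0.049), and HIST1H2BK without NS replicate 2 (0.0214). HIST1H2BK, the H2B gene without an annotated 3′ UTR, had 7.11, 6.59 and 6.67 CPM with G1, 8.25, 7.88 and 9.55 CPM with G7 and 8.54, 6.94 and 8.87 CPM with NS. G1 and NS overlapped there, at -0.26 ± 0.12 (edgeR adjusted p = 0.0722). HIST1H2BD had -0.39 ± 0.17, HIST1H4I -0.42 ± 0.19, HIST1H2AG -0.20 ± 0.19, HIST1H2BJ -0.44 ± 0.29 and HIST1H3H -0.62 ± 0.29, all on the log2 scale with SE.

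With G7, 3 of the 19 genes fell and 0 rose, where 22.7% of all tested genes were called (13.1% higher and 9.64% lower), so the members' share of calls lay near the background. The 3 were HIST1H2AC (-0.50 ± 0.076, edgeR adjusted p = 0.000111), HIST1H3E (-0.30 ± 0.088) and HIST1H4H (-0.57 ± 0.2). The median over the 19 was -0.19, against 0.01 for all genes. HIST1H2AC stayed called under each alternative. The call of HIST1H3E ended with DESeq2 (adjusted p = 0.0657) and without G7 replicate 2, NS replicate 1 or NS replicate 3 (0.069, 0.0658 and 0.0516 in edgeR). That of HIST1H4H ended with DESeq2 (0.101) and without any 1 library but G7 replicate 3 (0.0521 to 0.229 in edgeR). Both hairpins were set against the same NS libraries, so their values are given side by side and not as separate support.

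Between the hairpins, 8 of the 19 genes were lower and 1 higher in G1 than in G7, where 44.9% of all tested genes were called (23.3% higher and 21.6% lower). HIST3H2BB and HIST1H1E are among these calls and remain descriptions, for the reason given above. HIST1H2BN differed by -1.25 ± 0.28, HIST1H2AC by -1.07 ± 0.087, HIST3H2A by -0.91 ± 0.15 and HIST2H2BE by -0.69 ± 0.14 (log2, SE). HIST1H3E differed by -0.60 ± 0.096. The remaining lower calls, in HIST3H2BB, HIST1H4I and HIST1H2BK, and the higher call in HIST1H1E ended under DESeq2 (adjusted p = 0.167, 0.156, 0.0645 and 0.116) and without single libraries. Those libraries were any 1 of G1 or G7 for HIST3H2BB (0.0777 to 0.107 in edgeR), any 1 of G1 or G7 but G7 replicate 3 for HIST1H4I (0.0638 to 0.143), G1 replicate 2 or 3 or G7 replicate 3 for HIST1H2BK (0.0538 to 0.0995), and G1 replicate 2 or 3 or G7 replicate 2 or 3 for HIST1H1E (0.0555 to 0.125). Without G1 replicate 3, 5 genes were called in place of 9.

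The variants went the other way. With G1, 9 of the 10 rose and 1 fell, where 30.4% of all tested genes were higher and 28.7% lower, and the median log2 fold change was 0.37. With upper quartile scaling 7 rose and 1 fell. H2AFZ (ENSG00000164032, GRCh38 chromosome 4, 99948086 to 99950388) encodes H2A.Z, a variant found at promoters and regulatory sites. It had 190, 222 and 168 CPM with G1, 131, 130 and 93.4 CPM with G7 and 96.7, 72.4 and 89.3 CPM with NS. All G1 libraries were above all others, G7 replicate 3 lay among the NS libraries, and the log2 fold change was 1.17 ± 0.12 with G1 (edgeR adjusted p = 8.97e-08) and 0.45 ± 0.12 with G7. The G7 call ended with DESeq2 (adjusted p = 0.0641) and without NS replicate 2 (0.065 in edgeR). H2AFX encodes H2A.X, which is phosphorylated near DNA breaks. It had 26.7, 25.1 and 23.5 CPM with G1, 15.4, 14.7 and 17.5 CPM with G7 and 12.1, 12.3 and 13.3 CPM with NS. The 3 groups were separate, with G1 highest and NS lowest, at 1.0 ± 0.086 with G1 and 0.34 ± 0.09 with G7 (edgeR adjusted p = 1.33e-08 and 0.0108).

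CENPA, the H3 variant of centromeres, had 32.2, 33.9 and 30.6 CPM with G1, 23.9, 24.9 and 21 CPM with G7 and 19.9, 16.7 and 19 CPM with NS. Its groups did not overlap, and it rose by 0.80 ± 0.081 with G1 and 0.33 ± 0.083 with G7, the G7 call ending without NS replicate 2 (edgeR adjusted p = 0.0534). H1F0 (ENSG00000189060, GRCh38 chromosome 22, 37805093 to 37807436), a linker histone typical of cells that divide little, was the variant that fell. It had 166, 171 and 167 CPM with G1, 229, 231 and 247 CPM with G7 and 268, 272 and 263 CPM with NS. G1 was lowest and NS highest with no overlap, at -0.67 ± 0.042 with G1 and -0.18 ± 0.041 with G7 (edgeR adjusted p = 1.58e-10 and 0.0035). The H1F0 change was opposite in sign to that of HIST1H1E with G1, and no test of that difference was made.

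Smaller rises were seen in the remaining variants. H2AFY and H2AFY2 encode macroH2A proteins, which carry a large extra domain. H2AFY rose by 0.36 ± 0.048 with G1 and 0.24 ± 0.048 with G7, and H2AFY2 by 0.51 ± 0.11 and 0.31 ± 0.11. The G7 call of H2AFY2 ended with DESeq2 (adjusted p = 0.104), upper quartile scaling (0.0692) and without any 1 library but G1 replicate 3 and NS replicate 3 (0.0511 to 0.19 in edgeR). H3F3B and H3F3A both encode H3.3 and rose with G1 by 0.30 ± 0.051 and 0.19 ± 0.056. With G7 they had 0.11 ± 0.051 and 0.10 ± 0.056 and were not called. H1FX, a linker histone, rose by 0.37 ± 0.088 with G1, and had 0.20 ± 0.088 with G7, which was not called. Without G7 replicate 3, the library that stood apart, H3F3B, H3F3A and H1FX were all called with G7, at 0.14, 0.16 and 0.27 (edgeR adjusted p = 0.0373, 0.0185 and 0.0228). H3F3A was also called without NS replicate 1 (0.17, edgeR adjusted p = 0.0499). H2AFV, a close relative of H2AFZ, rose by 0.15 ± 0.057 with G1, and its call ended with upper quartile scaling (edgeR adjusted p = 0.324) and without G1 replicate 2, NS replicate 2 or NS replicate 3 (0.206, 0.0847 and 0.082). The H3F3A call also ended with upper quartile scaling (0.115). With G7, 5 variants rose and 1 fell of 10, where 13.1% of all tested genes were higher and 9.64% lower. In G1 minus G7, 5 were higher and 1 lower, where 23.3% of all tested genes were higher and 21.6% lower, 44.9% together. The 5 higher in G1 were H2AFZ (0.72 ± 0.11), H2AFX (0.66 ± 0.08), CENPA (0.48 ± 0.076), H3F3B (0.19 ± 0.05) and H2AFY (0.12 ± 0.046). The H2AFY difference was lost with DESeq2 (0.0603), with upper quartile scaling (0.258) and without G1 replicate 2, G7 replicate 1 or G7 replicate 2 (0.129, 0.117 and 0.119 in edgeR).

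**Figure D3:**
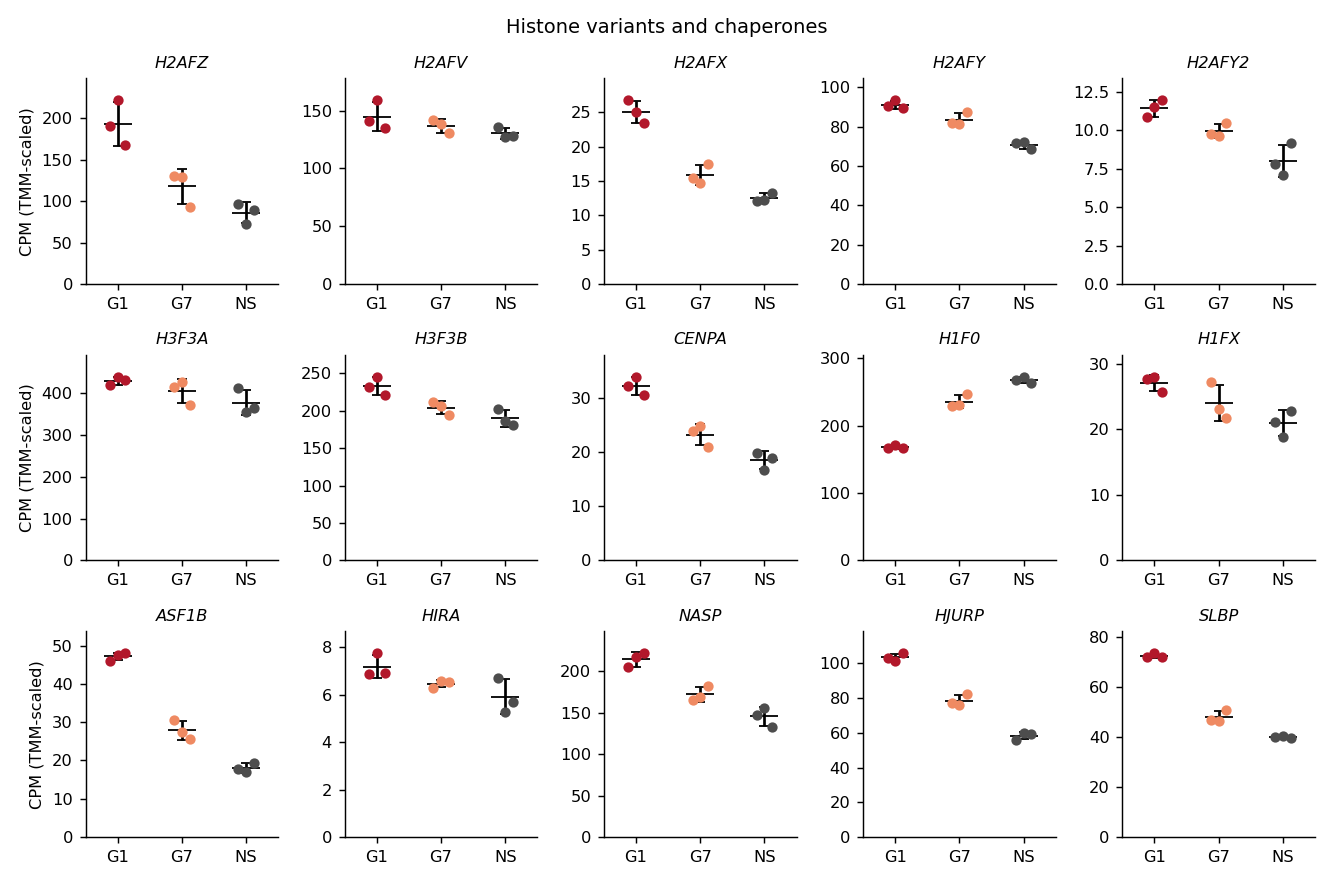
CPM (TMM-scaled, y axis) in each library of G1, G7 and NS for the 10 variants and the 5 chaperones with counts. Points are libraries, bars the mean ± SD of 3. ASF1B, HJURP, SLBP and H2AFX are highest with G1 and lowest with NS, while H1F0 is lowest with G1.

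All 5 genes of the chaperone class with counts, SLBP included, rose with G1, where 30.4% of all tested genes were higher. Their median log2 fold change was 0.82. With G7 4 rose, where 13.1% of all were higher, and in G1 minus G7 4 were higher, where 23.3% of all were. ASF1B (ENSG00000105011, GRCh38 chromosome 19, 14119509 to 14136956), the ASF1 form known for its link to proliferation, had 46.1, 47.6 and 48 CPM with G1, 30.6, 27.4 and 25.5 CPM with G7 and 17.8, 17 and 19.5 CPM with NS. The groups were separate, and it rose by 1.38 ± 0.074 with G1 and 0.62 ± 0.077 with G7 (edgeR adjusted p = 2.02e-11 and 1.52e-05). SLBP, which binds the stem-loop shown above, had 72.2, 73.6 and 72.3 CPM with G1, 47, 46.3 and 51 CPM with G7 and 39.9, 40.4 and 39.7 CPM with NS. It was highest in all G1 libraries and lowest in all NS libraries, at 0.86 ± 0.052 with G1 and 0.27 ± 0.053 with G7 (edgeR adjusted p = 1.02e-10 and 0.00135).

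HJURP, the chaperone of CENPA, had 103, 102 and 106 CPM with G1, 76.9, 75.9 and 82.5 CPM with G7 and 56.1, 59.8 and 59.2 CPM with NS. No groups overlapped, and the log2 fold changes were 0.82 ± 0.049 with G1 and 0.43 ± 0.049 with G7. NASP, which holds free histones, had 205, 217 and 222 CPM with G1, 165, 169 and 183 CPM with G7 and 148, 156 and 133 CPM with NS. All G1 libraries were above G7, and all G7 above NS, at 0.56 ± 0.057 and 0.24 ± 0.057. HIRA had 6.88, 7.75 and 6.93 CPM with G1, 6.30, 6.58 and 6.52 CPM with G7 and 6.72, 5.29 and 5.71 CPM with NS. Its G7 libraries lay within the range of NS and its G1 libraries above it. It was called with G1 (0.29 ± 0.12, edgeR adjusted p = 0.041) and not with G7 (0.14 ± 0.12), and the G1 call ended with DESeq2 (0.12), with upper quartile scaling (0.141) and without G1 replicate 2 or 3 or NS replicate 2 or 3 (0.05 to 0.156 in edgeR). Between hairpins ASF1B, SLBP, HJURP and NASP were higher in G1 than in G7 by 0.76 ± 0.068, 0.59 ± 0.05, 0.40 ± 0.047 and 0.32 ± 0.055.

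**Figure D4:**
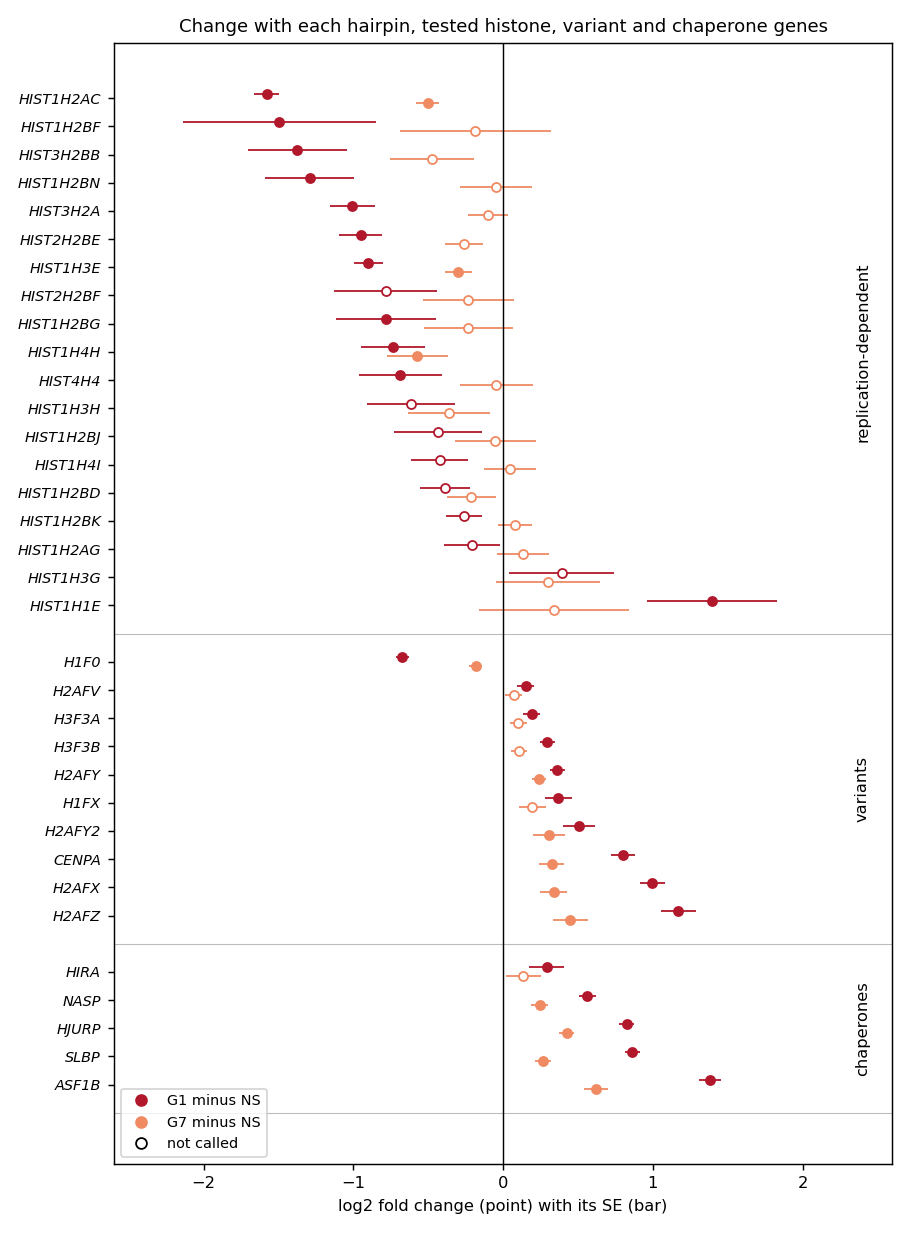
log2 fold change (x axis, point with SE bar) of G1 minus NS and G7 minus NS for the 34 tested genes, by class. Filled points were called at an edgeR adjusted p under 0.05. Most replication-dependent genes lie left of 0 with G1, and all variants but H1F0 and all tested chaperones lie right of it.

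The class sums are for oligo-dT selected RNA only. The replication-dependent and chaperone sums moved apart in the same libraries, while the variant sums of G7 and NS overlapped. The 71 replication-dependent genes summed to 48.4, 50.4 and 45.6 CPM with G1, 75.0, 78.7 and 71.3 with G7, and 90.5, 87.7 and 90.3 with NS, a ratio of 0.538 for G1 over NS and 0.838 for G7 over NS. Groups of 3 libraries cannot give an exact permutation p under 0.1, and no test is given for these sums. The difference lay in genes with a long 3′ UTR, at 39.5 CPM with G1, 65.2 with G7 and 80.5 with NS, whereas the genes with none annotated, 94.4% of whose counts were HIST1H2BK, had 7.48, 9.05 and 8.33 CPM in those groups. Variants summed to 1354 ± 63.8 CPM with G1, 1254 ± 52.5 with G7 and 1181 ± 56.5 with NS, and chaperones to 445 ± 10.9, 333 ± 13.1 and 268 ± 11.1 CPM (SD, n = 3 each). The variant sums ran from 1194 to 1285 CPM with G7 and from 1140 to 1245 with NS. Without TMM factors, variants took 0.123% to 0.14% of the counts with G1 and 0.115% to 0.13% with NS, which overlapped. In the same libraries a list of 26 S phase genes summed to 2376 ± 21.7 CPM with G1, 1451 ± 42.7 with G7 and 1015 ± 8.41 with NS, with 25 of 25 tested genes higher with G1 and 23 with G7, where 30.4% and 13.1% of all tested genes were higher. RRM2, MCM4, PCNA and MCM6 were among them, at 1.58, 1.52, 1.42 and 1.55 with G1 on the log2 scale. In bulk libraries a change in the share of cells in S phase and a change in RNA per cell cannot be told apart, and the part of either in the histone results was not tested.

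**Figure D5:**
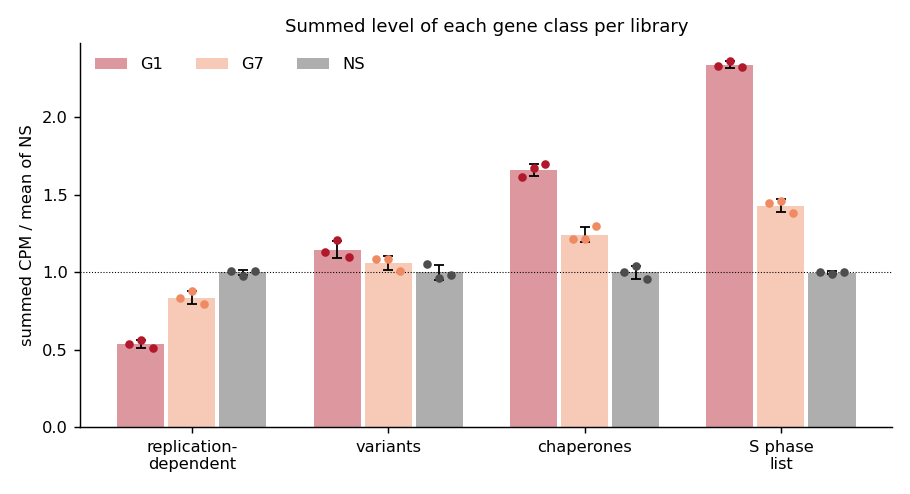
Summed CPM of each class divided by the mean of the NS libraries (y axis, from 0), for G1, G7 and NS. Bars are means, error bars SD of 3 libraries and points libraries. The replication-dependent sum, which leaves out RNA without a poly-A tail, is lowest with G1 (ratio 0.538). The chaperone (1.66) and S phase (2.34) sums are highest there.

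Levels per length differed widely between genes. On the scale of mean CPM per kilobase of annotated exon, H3F3A had 136 with G1, 128 with G7 and 120 with NS, and H1F0 had 71.7, 101 and 114. H2AFZ followed, at 84.0, 51.2 and 37.4, above H1F0 with G1 and below it with the others. The replication-dependent genes were lower than H3F3A, H1F0 and H2AFZ. HIST1H2BK had 17.8, 22.5 and 21.3 and HIST1H2AC 5.88, 12.5 and 17.7 CPM per kilobase. Not all variants lay above them. CENPA, at 16.3, 11.7 and 9.34, was below HIST1H2BK in every group, as were H2AFX, H2AFY and H2AFY2. H3F3B and H2AFV were above HIST1H2BK in every group, and H1FX only with G1. These ranks depend on the annotation, since the length merges the exons of all transcripts of a gene. It was 17730 bases for H2AFY and 381 for HIST1H2BK. In CPM alone, CENPA, H2AFX and H2AFY were above HIST1H2BK in every group, and H2AFY2 with G1 and G7. With NS, H2AFY had 70.9 CPM and HIST1H2BK 8.11.

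Promoter letters were compared with those of RefSeq promoters (GRCh38.p14, 250 bases before to 50 after the start), which were matched by symbol for 61 of 71 replication-dependent genes, 9 of 10 variants and 6 of 6 chaperones. On either strand, CCAAT stood in 51 of the 61, in 7 of 9 variants and in 4 of 6 chaperones, against 34.6% of all 35116 promoters. The octamer ATTTGCAT, which binds OCT1, stood in 14 of 18 H2B and 11 of 14 H2A promoters, against 1.77% of all. The box AAACACA stood in 6 of 6 H1 promoters, against 5.64% of all, and TATAAA in 40 of 61, against 11.5%. An E2F word (TTTCCCGC, TTTCGCGC, TTTGCCGC or TTTGGCGC) stood in 16 of 61, 1 of 9 variants and 1 of 6 chaperones, against 3.31%, and TTTGAA in 21 of 61, 3 of 9 and 2 of 6, against 15.2%. Each word was searched on its own, so hits of different words could overlap, and divergent neighbours such as HIST3H2A and HIST3H2BB share upstream sequence. The promoters below are shown for 2 genes that fell and 3 that rose, with the octamer, the CCAAT and TATAAA words and the E2F words on either strand in capitals, the 250 bases before the start, 5′ to 3′ on the gene's strand.
HIST1H2AC, chr6:26123922-26124171, plus strand: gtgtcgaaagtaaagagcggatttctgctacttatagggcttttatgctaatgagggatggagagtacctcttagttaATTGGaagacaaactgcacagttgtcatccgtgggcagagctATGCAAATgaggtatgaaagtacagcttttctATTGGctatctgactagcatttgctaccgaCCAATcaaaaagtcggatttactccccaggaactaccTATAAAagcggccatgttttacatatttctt
HIST2H2BE, chr1:149886683-149886932, minus strand: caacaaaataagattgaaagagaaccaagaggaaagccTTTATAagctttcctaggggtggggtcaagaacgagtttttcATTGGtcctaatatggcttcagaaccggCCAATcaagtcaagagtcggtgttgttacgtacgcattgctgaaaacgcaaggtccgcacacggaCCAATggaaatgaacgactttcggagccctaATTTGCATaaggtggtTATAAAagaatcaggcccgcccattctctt
H2AFX, chr11:119095466-119095715, minus strand: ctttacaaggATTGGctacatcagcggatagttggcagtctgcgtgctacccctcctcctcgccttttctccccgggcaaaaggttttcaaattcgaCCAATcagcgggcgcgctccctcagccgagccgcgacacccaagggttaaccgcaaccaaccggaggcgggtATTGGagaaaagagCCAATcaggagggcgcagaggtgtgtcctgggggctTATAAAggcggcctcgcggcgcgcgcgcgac
CENPA, chr2:26785806-26786055, plus strand: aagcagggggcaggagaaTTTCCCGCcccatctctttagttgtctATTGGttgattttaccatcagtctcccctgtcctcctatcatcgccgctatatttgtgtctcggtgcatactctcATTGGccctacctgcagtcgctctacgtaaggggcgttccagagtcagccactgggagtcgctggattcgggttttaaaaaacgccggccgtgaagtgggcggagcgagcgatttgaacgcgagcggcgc
ASF1B, chr19:14136590-14136839, minus strand: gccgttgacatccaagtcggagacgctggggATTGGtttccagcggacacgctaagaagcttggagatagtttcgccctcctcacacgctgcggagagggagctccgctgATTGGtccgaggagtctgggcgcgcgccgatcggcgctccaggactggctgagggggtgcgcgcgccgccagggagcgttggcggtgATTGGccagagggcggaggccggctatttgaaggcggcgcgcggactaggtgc
HIST1H2AC and HIST2H2BE carried the octamer, and H2AFX, CENPA and ASF1B did not, while CCAAT stood in all 5. Other genes went the other way. H3F3B, which rose with G1, carried the octamer, and HIST1H3E and HIST1H2BN, which fell, did not. HIST1H2BK and HIST1H2AG carried it and were not called with G1. A match describes letters only.

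Other genes of histone supply were taken from lists drawn up for the purpose. Of 31 tested histone chaperones and their partners that were not among the members, 24 rose and 3 fell with G1, where 30.4% of all tested genes were higher and 28.7% lower, and 13 rose and 2 fell with G7, where 13.1% were higher and 9.64% lower. They included MCM2, which holds histones at the replication fork (1.38 ± 0.064 with G1 and 0.60 ± 0.065 with G7), and CHAF1B and CHAF1A of the CAF-1 complex, which loads new H3 and H4 (1.33 and 0.99 with G1, 0.39 and 0.44 with G7). RBBP7 had 0.52 with G1 and 0.24 with G7. Of 19 tested genes for histone RNA processing, 11 rose and 1 fell with G1, where 30.4% of all tested genes were higher and 28.7% lower. The number called in either direction lay near the background of 59.1%. With G7 5 rose and 1 fell, where 22.7% of all were called (13.1% higher and 9.64% lower). ERI1, which trims histone RNA ends, changed by 0.84 ± 0.075 with G1 and 0.34 ± 0.077 with G7. SRRT, which couples the RNA cap to processing, rose by 0.71 with G1, NCBP1 of the cap-binding complex by 0.49 and CPSF2 by 0.44. With G7, SRRT had 0.05 and NCBP1 0.01, neither called (edgeR adjusted p = 0.55 and 0.908), and CPSF2 rose by 0.20. Of 10 further variants 1 was tested, H2AFJ, with 0.10 ± 0.076 with G1 and 0.26 ± 0.074 with G7. The G7 value was called, and the call ended without G7 replicate 2 or NS replicate 2 (edgeR adjusted p = 0.0657 and 0.101).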

How the data were processed

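Polyadenylated RNA of 9 libraries (G1, G7 and NS, 3 each) was sequenced from strand-specific dUTP libraries, per the labels' protocols. The authors deposited unnormalized counts of reads for each Ensembl gene. TopHat2 2.1.0, HTSeq 0.6.0 and build hg38 (GRCh38) are named in the submitters' processing notes. Neither the annotation release nor the strand setting of the counting is given there. Of 60675 rows, 57055 carried an identifier of GENCODE release 29, and the others held 0.025% of the counts. No row was without a gene identifier.

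From the deposited counts, edgeR 4.0.16 in R 4.3.3 kept 13264 genes by filterByExpr, scaled libraries by TMM, fitted 1 mean per group over all 9 libraries, and tested G1 minus NS, G7 minus NS and G1 minus G7 by two-sided quasi-likelihood tests. Calls needed an adjusted p (Benjamini-Hochberg, over all tested genes) under 0.05. CPM values are TMM-scaled, ± on a CPM is the SD, and ± on a log2 fold change is its SE. A count of 0 allows up to 3 counts, which is 0.139 to 0.227 CPM, for counting error only. Libraries of a group differed by more than sampling noise, their chi-square over its degrees of freedom being 1.51 to 24.7.

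Members and gene lists were chosen with earlier results of these data known. The text names all variants and chaperones, the 12 most counted replication-dependent genes, up to 4 more per contrast and direction by smallest p, and up to 4 per further list. Alternatives were RLE and upper quartile scaling, other filters on low counts, DESeq2 1.42.0, fits on 2 groups, a replicate block, removal of mitochondrially encoded genes and leaving out each library. Shared sequence was measured as exonic 50-base words found in another gene of GENCODE release 29.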

Additional observations from a re-analysis of the deposited data

How the results depend on the processing

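Among the named genes, no called value changed its sign under any alternative run. With DESeq2, 1 replication-dependent gene was called in G7 minus NS in place of 3, and 5 in G1 minus G7 in place of 9. Leaving out 1 library gave 8 to 12 called replication-dependent genes in G1 minus NS, 1 to 3 in G7 minus NS and 5 to 9 in G1 minus G7. It gave 3 to 8 called variants in G7 minus NS. The log2 ratio of the share of counts in replication-dependent genes was -0.99 for G1 minus NS. It was -0.75 without HIST1H2AC and -1.13 with only genes of few shared words and no span overlap, both chosen after seeing the data, and the cause was not tested. Upper quartile scaling moved the median of all genes to -0.10 for G1 minus NS. With it 3066 genes were higher and 4815 lower in G1 minus NS (4031 and 3806 with TMM), 1398 and 1603 in G7 minus NS (1735 and 1279), and 2346 and 3751 in G1 minus G7 (3092 and 2870). The labels number the replicates but state no pairing across groups. Deviations of same-numbered libraries correlated at 0.0322, 0.141 and 0.199 between G1 and G7, and between -0.0763 and 0.0532 where NS was involved. Differently numbered libraries correlated between -0.191 and 0.186. Whether the numbers pair the samples cannot be told from so few values. With the replicate number as a block, 7909, 3117 and 6069 genes were called in G1 minus NS, G7 minus NS and G1 minus G7, against 7837, 3014 and 5962 without it. Under the block the G1 calls of HIRA (adjusted p = 0.0523) and HIST1H2BG (0.0637) and the G1 minus G7 call of HIST3H2BB (0.0503) ended, and HIST4H4 was called in G1 minus G7 (0.0338). Over all alternatives and named genes, 97 values lost a call, 30 gained one and 2247 did neither. Counts under 20 per library limit HIST1H1E, HIST1H2BF and HIST3H2BB, and genes at 0 cannot be placed below the limit that 3 counts allow.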
